A study of Rattus norvegicus with 123 samples.

Results

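The set described here holds 84 transcripts of rat liver, out of 22470 distinct probe sets on the array, whose levels were far above the controls in rats given the high dose of methapyrilene and close to the controls in rats given Wy-14643 or phenobarbital. A transcript belonged to the set when its mean log2 level was at least 2.5 above the controls after 14 days of methapyrilene at 100 mg/kg, within 0.5 of the controls in either direction after 28 days of Wy-14643 at 60 mg/kg, and less than 0.5 above the controls after 28 days of phenobarbital at 80 mg/kg. The methapyrilene condition alone was met by 158 transcripts. Of the other 74, 61 were more than 0.5 above the controls with Wy-14643, 7 were more than 0.5 below, and 6 were flat with Wy-14643 but 0.5 or more above the controls with phenobarbital. The values of those 3 comparisons chose the members, so they are given below as a description, without a test. At the edge of the methapyrilene condition, the lowest log2 difference inside was 2.51 and the highest outside, with the other conditions met, was 2.49. With Wy-14643 the differences inside ran from -0.48 to 0.50, and the nearest ones outside were 0.51 and -0.50. With phenobarbital they ran from -0.52 to 0.44, and the nearest one outside was 0.56.

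The study compared livers of Han Wistar rats that the submitters describe as adult males. The rats were dosed daily by gavage with a carcinogenic or non-carcinogenic compound or its vehicle alone, and killed a day after the last dose. RNA was hybridised to Affymetrix RaGene 2.0 ST arrays, and the 112 arrays that the submitters marked as of good quality were used, while 11 others were not. Group names give doses in ppm while the dose fields give mg/kg, and the latter is used here. Methapyrilene, an antihistamine given as the hydrochloride, was dosed at 100 mg/kg for 14 days (3 arrays) and at 30 mg/kg for 14 and 28 days (3 arrays each). Piperonyl butoxide, a pesticide synergist, was given at 600 mg/kg for 14 and 28 days (3 arrays each), and both compounds shared the carboxymethylcellulose controls of set C (3 arrays a day). Wy-14643 at 60 mg/kg for 28 days (5 arrays) had the carboxymethylcellulose controls of set B (5 arrays). Phenobarbital at 80 mg/kg for 14, 28 and 90 days (3, 5 and 3 arrays) had those of set A (5, 5 and 4 arrays). 1,4-Dichlorobenzene, a chlorinated benzene, was given at 600 mg/kg for 28 days and set against the corn oil controls of set B (4 arrays each). Cyproterone acetate, a steroidal antiandrogen, was given at 100 mg/kg for 14 and 28 days in groups named F and in groups named M, each against corn oil controls of set D with the same letter or none (4 arrays in every group). The labels do not spell out these letters and describe male rats throughout, so no sex is read from them. Pioglitazone at 16 and 63 mg/kg (3 and 5 arrays) and rosiglitazone at 10 mg/kg (3 arrays), both given for 28 days, shared the water controls of set E (5 arrays).

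Methapyrilene is known as a liver toxicant and liver carcinogen of the rat, with injury around the portal tracts and outgrowth of bile duct cells. Wy-14643 makes peroxisomes multiply in rodent liver by activating PPAR alpha, a nuclear receptor, and phenobarbital is the classic activator of the receptor CAR, which switches on drug-metabolising enzymes. The set thus gathers transcripts that the high methapyrilene dose shared with neither of these responses, by the thresholds used to choose it.

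The deposited table names each probe set by an Ensembl transcript, and the rat annotation used here does not hold those identifiers, so no member could be paired with a gene symbol, a role or a sequence. Neither could liver cell type markers or pathway lists be read, and the liver label was not tested against hepatocyte markers. For this reason 4 members are named by identifier, chosen by a rule, and the others are given by counts and ranges. All values are log2 levels as deposited, on which 1 unit is a 2-fold difference, and the median over all transcripts of an array lay between 5.43 and 5.64. A transcript is called raised or lowered when limma's test, with Benjamini-Hochberg adjustment over all 22470 transcripts, gave an adjusted p under 0.05. In whole liver, a change in the number of cells of a type and a change in the RNA of each cell cannot be told apart, and this holds for every difference given here.

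**Figure D1:**
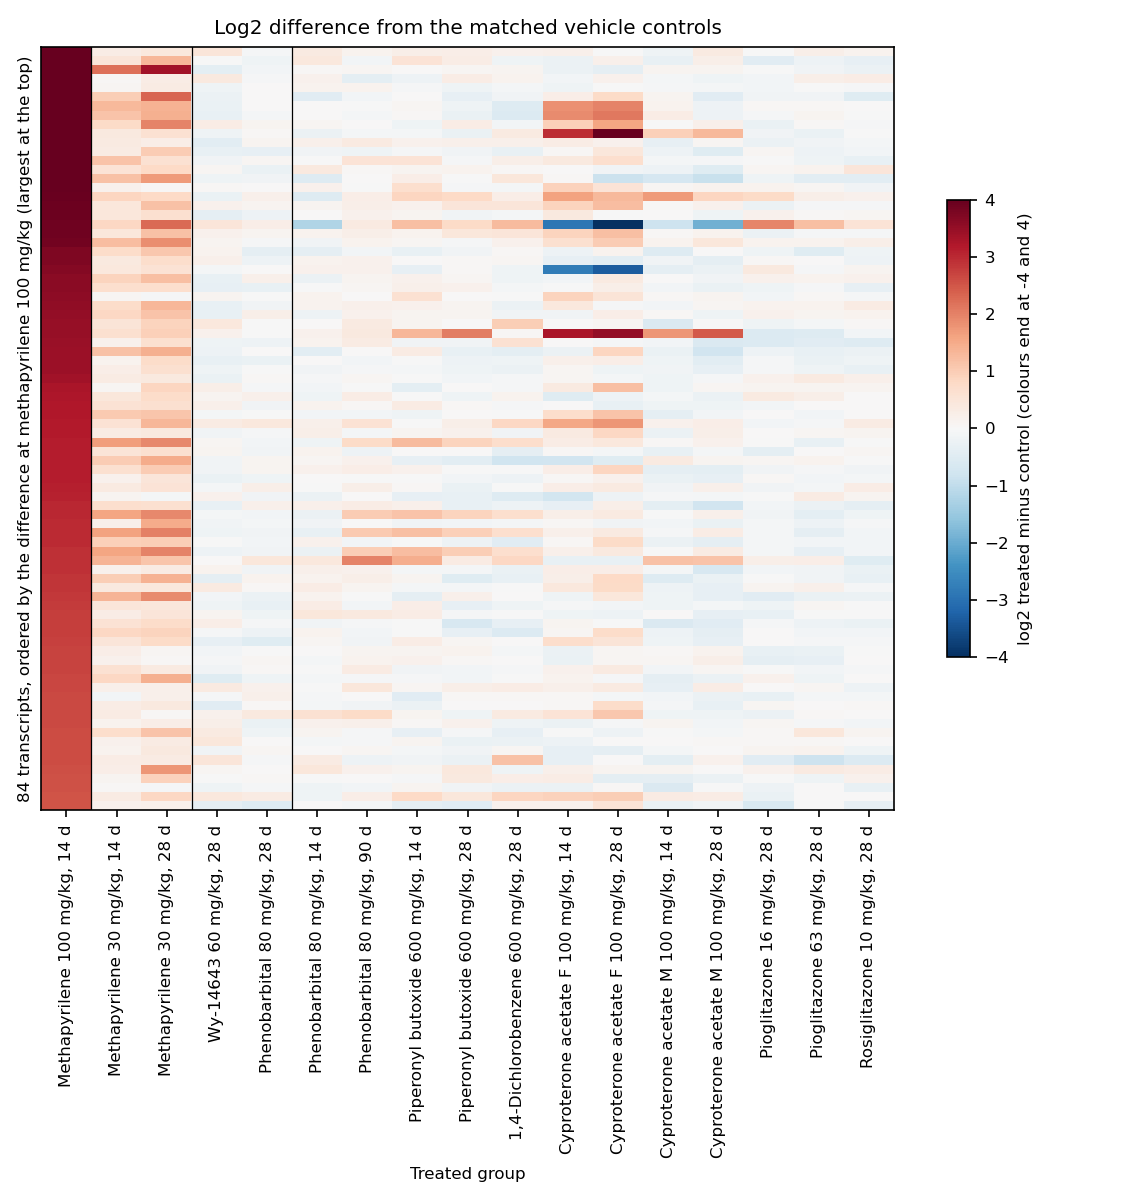
Log2 difference from the matched vehicle controls for the 84 members (1 line each, largest methapyrilene 100 mg/kg difference at the top) in the 17 treated groups (columns), coloured from -4 (blue) to 4 (red). The first column is red throughout because it chose the members; paler red fills the 28-day column of methapyrilene at 30 mg/kg, and most cells of the other compounds are near white apart from lines in the cyproterone acetate F columns.

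At methapyrilene 100 mg/kg the members stood between 2.51 and 6.62 log2 units above the controls, with a median of 3.17. Each of the 84 had all 3 treated arrays above all 3 control arrays, against 28.9% of all transcripts. Of the members, 16 were 4 or more log2 units up and 5 were 5 or more. All 84 would be called raised, against 24.8% of all transcripts. Nothing is read from either count because the same values chose the members. The arrays were alike: the median over the members of the log2 difference from the control mean was 3.30, 3.22 and 3.12 on the 3 arrays. The median SD of a member over these arrays was 0.20, against 0.13 for all transcripts.

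The largest difference belonged to ENSRNOT00000048996. Its log2 level was 9.78, 10.27 and 11.04 on the 3 arrays of methapyrilene 100 mg/kg and 4.16, 3.54 and 3.53 on their controls. The means were 10.36 ± 0.63 and 3.75 ± 0.36 (SD, n = 3 each), a log2 difference of 6.62, and the groups lay far apart. The next largest differences among the members were 5.91 and 5.38. At 30 mg/kg for 28 days the transcript read 4.36, 4.60 and 4.04, against 3.97, 3.80 and 3.96 in the controls. That log2 difference of 0.43 (SE 0.26, 95% interval -0.09 to 0.95) did not pass limma's test (adjusted p = 0.352), although the treated arrays all lay above the controls. The 14-day arrays at this dose read 3.85, 3.76 and 4.48 and overlapped the controls of that day. Outside the groups used by the rule, its group means spanned only 3.75 to 4.33 on the log2 scale, and no comparison there called it. The highest single control array of the whole series read 4.49, well under the 9.78 of the lowest array at 100 mg/kg. The 3 transcripts most like it over the 23 group means outside the rule had Pearson r of 0.731, 0.731 and 0.728. None of them was a member, and their own log2 differences at methapyrilene 100 mg/kg were 0.44, 0.84 and 0.44. These 23 points share arrays and control sets, and the likeness concerns a transcript that barely varied over them.

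The 30 mg/kg groups are the lower dose step. After 28 days at 30 mg/kg, 48 of the 84 members were raised and 0 were lowered, where 5.37% of all transcripts were raised and 4.06% were lowered. The median log2 difference of the members was 0.75, against -0.03 over all transcripts, and 81 of 84 were above 0. The 48 raised members had a median log2 rise of 1.18, and 31 of them rose by 1 log2 unit or more. The 36 members that were not called had log2 differences from -0.09 to 1.11. Every treated array was above every control array for 39 members, against 10.9% of all transcripts. The control arrays of this comparison did not enter the rule, but the compound did. The count rests in part on 1 array: without replicate 2 of the treated group, 25 members were raised, and without replicate 1 there were 62. It also rests on a spread per transcript that the fit shares over all 29 groups. The members' median SD was 0.61 in this treated group and 0.22 in its controls, so the test allows for less spread than these arrays show.

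The 14-day group at 30 mg/kg showed a smaller difference. The members' median log2 difference was 0.47, 83 of 84 were above 0, 15 were at 1 or more, and 45 were under 0.5. This group was compared with the same control arrays as the rule, so its values are a description. Against the carboxymethylcellulose controls of set A for the same day, which the rule did not use, the median log2 difference was 0.43.

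Set beside the high dose, the lower dose reached a modest part of the log2 rise. The 14-day difference at 30 mg/kg was, in the median member, 13.4% of the log2 rise at 100 mg/kg, and the 28-day difference was 22.0%. Members ranged from -3.9% to 53.9% on day 14 and from -3.0% to 68.3% on day 28. For 69 of 84 members the log2 difference was larger on day 28 than on day 14. The day-14 differences used control arrays of the rule and the day-28 ones did not. No share over all transcripts was taken, so this count is a description. The treated groups of both days were also compared directly. With limma, 0 members were higher and 0 lower on day 28, against 0.0% of all transcripts in each direction. The members' median log2 difference there was 0.26, with a typical 95% interval of plus or minus 0.46, and 19 members were higher at an unadjusted p under 0.05. Leaving out replicate 1 of the 28-day group gave 16 members that differed, and leaving out replicate 3 of the 14-day group gave 4.

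**Figure D2:**
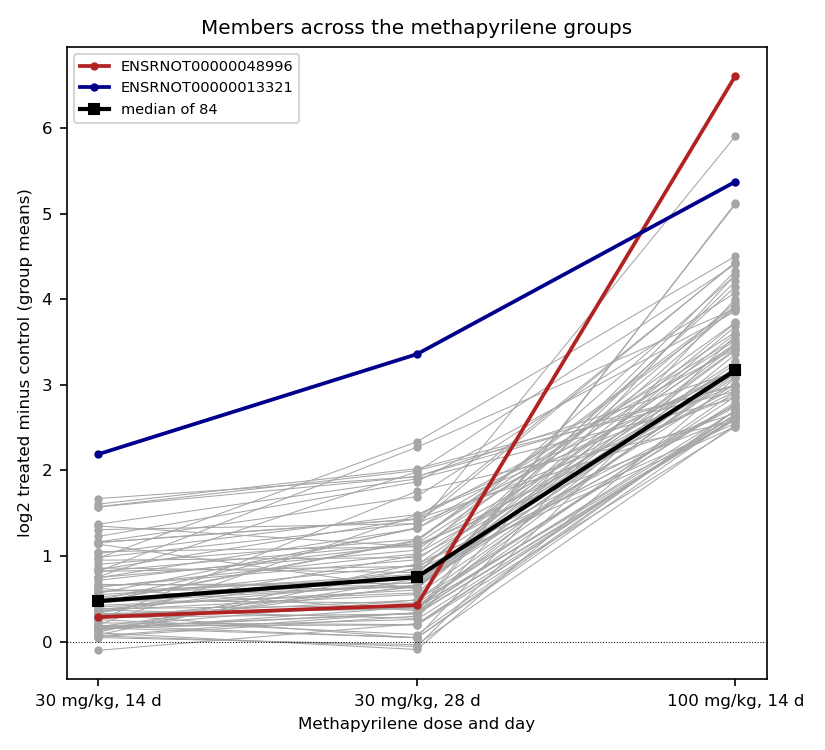
Log2 difference of group means from controls (vertical axis) for each of the 84 members (grey lines) in the 3 methapyrilene groups (horizontal axis), with the median in black. The median runs 0.47, 0.75 and 3.17; ENSRNOT00000048996 (red) stays near 0 until 100 mg/kg while ENSRNOT00000013321 (blue) is already 2.19 and 3.36 above the controls at 30 mg/kg.

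Members with the largest differences at the high dose were not always raised at the lower one. Of the 16 members that were 4 or more log2 units up at 100 mg/kg, 9 were raised at 30 mg/kg for 28 days and 5 were less than 0.5 log2 units above the controls there. Of the 5 members that were 5 or more up, 2 were raised. Across the 84 members, which share arrays and are not independent, the log2 differences of the 2 groups had Pearson r = 0.249 and Spearman rho = 0.285. The 48 raised members had a median log2 rise of 3.41 at 100 mg/kg and the 36 others one of 2.92. The 100 mg/kg differences chose the members, so transcripts with smaller differences at that dose are absent here. That cut limits the range of one side of both comparisons. The correlations and both medians are therefore a description of the members and do not test a relation between the doses.

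The largest rise at 30 mg/kg for 28 days was that of ENSRNOT00000013321. Its log2 level was 7.28, 10.84 and 9.86 on the treated arrays and 5.90, 5.90 and 6.11 on the controls, so all treated arrays were higher but they spread widely. The means were 9.33 ± 1.84 and 5.97 ± 0.12 (SD, n = 3 each), a log2 rise of 3.36 (SE 0.32, limma adjusted p = 2.18e-13). That SE rests on 1 spread per transcript, shared by all 29 groups, and the treated arrays here spread far more widely. It therefore understates the uncertainty of this rise, and so does the p-value. After 14 days at the same dose the arrays read 7.02, 8.10 and 9.02 against 5.83, 5.86 and 5.88 in the controls. At 100 mg/kg they read 11.82, 11.14 and 10.75, a log2 difference of 5.38. The highest array at 30 mg/kg thus lay inside the range of the 100 mg/kg arrays, while the lowest lay under every one of them. Direct comparison of day 28 with day 14 at 30 mg/kg gave a log2 difference of 1.28 (SE 0.32, limma adjusted p = 0.316). With all other compounds its group means stayed close to the controls, and no comparison there called it. For piperonyl butoxide on day 28, for instance, it read 6.07, 6.01 and 6.05 with a log2 difference of 0.07 (95% interval -0.57 to 0.71).

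The 3 arrays at 30 mg/kg for 28 days differed from each other across the whole set. The median over the 84 members of the log2 difference from the control mean was 0.22 on replicate 1, 1.22 on replicate 2 and 0.89 on replicate 3. At 1 log2 unit or more above the control mean were 6 members on replicate 1, 50 on replicate 2 and 41 on replicate 3. Replicate 1 held the lowest of the 3 levels for 73 of the 84 members and replicate 2 the highest for 57. The order of the arrays was not counted over all transcripts. The median SD of a member in this group was 0.61, against 0.18 for all transcripts and 0.22 for the members in the matched controls. Replicate 2 exceeded replicate 1 for 81 members, by a median of 1.02 log2 units. The excess was 1 or more for 42 members, against 1.25% of all transcripts. On day 14 at 30 mg/kg the array medians were 0.39, 0.42 and 0.76 above the control mean, and replicate 3 held the highest level for 61 members.

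**Figure D3:**
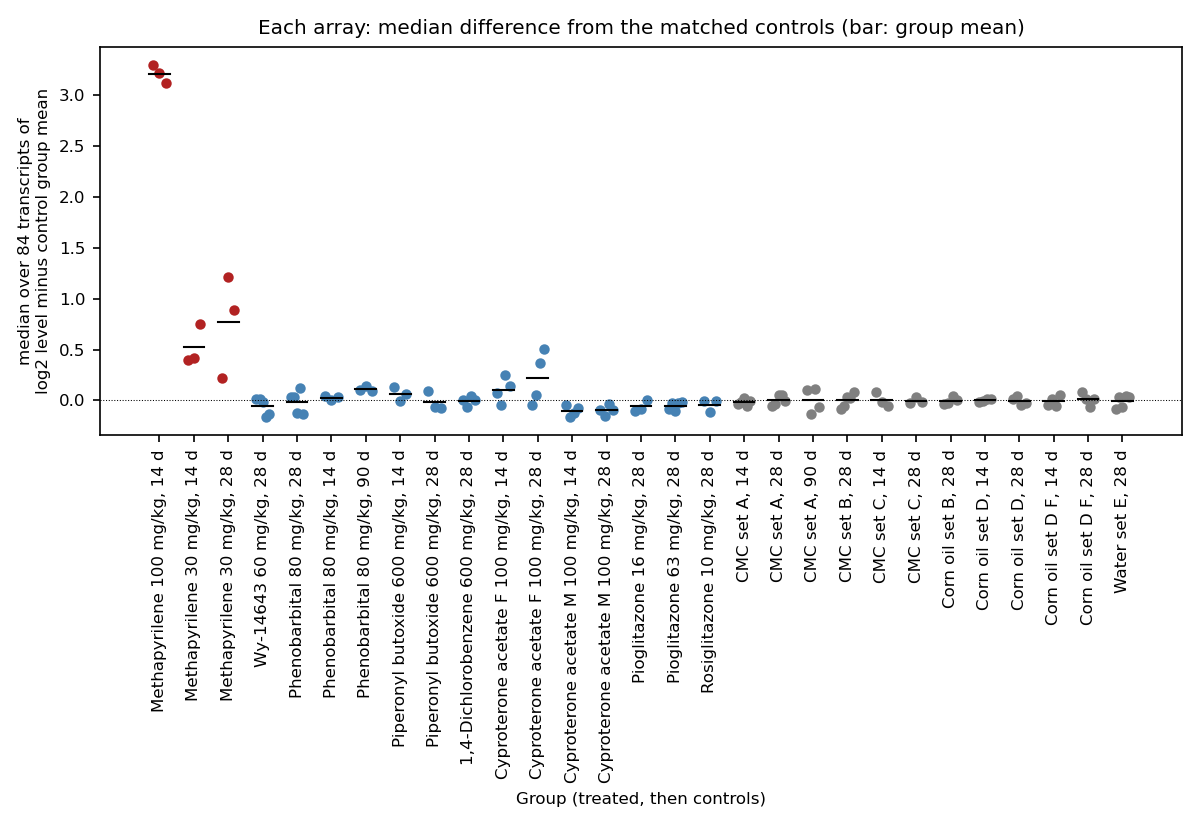
Median over the 84 members of the log2 level minus the mean of the matched control group, for each array used (points, red methapyrilene, blue other compounds, grey controls), with the group mean as a bar. The 100 mg/kg arrays lie at 3.12 to 3.30, the 28-day 30 mg/kg arrays spread from 0.22 to 1.22, and the cyproterone acetate F arrays of day 28 from -0.05 to 0.50.

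Piperonyl butoxide and methapyrilene shared control arrays and treatment times, and their treated groups were compared directly. At 30 mg/kg of methapyrilene for 28 days, 51 members were higher than with piperonyl butoxide at 600 mg/kg and 1 was lower, where 10.1% of all transcripts were higher and 8.75% were lower. The members' median log2 difference was 0.78. Without replicate 2 of the methapyrilene group, 31 members differed in place of 52. ENSRNOT00000013321 was 3.29 log2 units higher with methapyrilene (SE 0.32, limma adjusted p = 3.98e-13). Here too the SE comes from the spread shared by all groups and understates that of its methapyrilene arrays.

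Piperonyl butoxide alone moved few members. On day 28, 3 members were raised and 1 was lowered, against 4.93% and 5.71% of all transcripts, and the median log2 difference was -0.003. Each array left out moved the raised count by more than 1.5 times: leaving out treated replicate 1 gave 7, treated replicate 2 gave 6, and any of the other 4 arrays gave 1. A single member rose by more than 1 log2 unit, by 2.05 (SE 0.24, limma adjusted p = 8.02e-10). On day 14, against the control arrays that the rule also used, the log2 differences ran from -0.45 to 1.45 with a median of 0.07.

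Cyproterone acetate raised part of the set in the F groups. On day 28 in F, 22 members were raised and 3 were lowered, against 8.91% and 6.24% of all transcripts. The median log2 difference was 0.23, and 13 members rose by 1 log2 unit or more. On day 14 in F, 15 members were raised and 4 were lowered, against 7.53% and 6.21% of all transcripts, with a median of 0.09. On both days 13 members (15.5%) were raised, against 5.26% of all transcripts. This is 13 of the 15 and 13 of the 22. Over all transcripts it was 1181 of the 1692 raised on day 14 and 1181 of the 2003 raised on day 28. The largest F rises were 3.99 log2 units (SE 0.33, limma adjusted p = 8.74e-18) and 3.51 (SE 0.21, limma adjusted p = 3.76e-25), both on day 28. These members had stood 4.33 and 3.47 log2 units above the controls at methapyrilene 100 mg/kg. On 6 and 8 of the 8 F-treated arrays they reached the lowest level of their methapyrilene 100 mg/kg arrays.

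In the M groups the counts were near the share of all transcripts. On day 14, 3 members were raised and 3 were lowered, against 5.22% and 4.72% of all transcripts. On day 28, 3 were raised and 4 were lowered, against 6.16% and 5.14%. The median log2 differences were -0.11 and -0.09. The same 3 members (3.57%) were raised on both days in M, against 2.88% of all transcripts. They were also raised on both days in F, and 1.41% of all transcripts were raised on both days in F and M. The largest M rise was 2.44 log2 units on day 28 (SE 0.21, limma adjusted p = 1.13e-15), in the member with the F rise of 3.51.

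The difference between the F and M responses was tested itself, as the treated-minus-control difference in F less that in M. On day 28, 18 members had a larger difference in F and 1 a smaller one, where 2.06% and 1.41% of all transcripts did. On day 14 there were 7 and 2, against 1.93% and 1.45%. On both days 7 members (8.33%) were above 0 and called, against 0.948% of all transcripts, and 1 (1.19%) was below 0 and called, against 0.752%. Without replicate 4 of the treated F group, 11 members differed on day 28, and without replicate 2 of the treated F group of day 14, 15 differed on that day. Sex cannot be read from the labels, so the letters alone define this comparison.

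**Figure D4:**
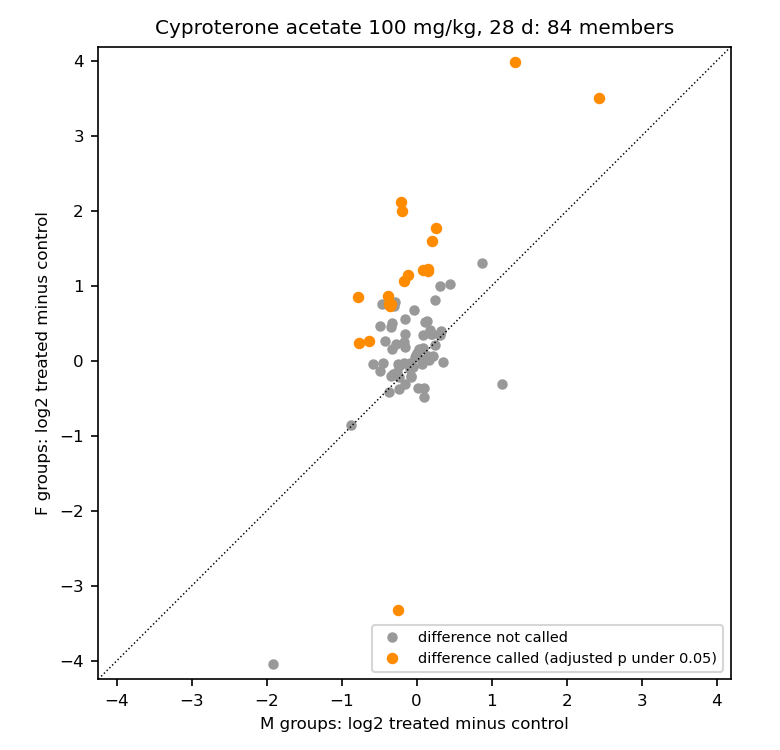
Log2 difference from controls after 28 days of cyproterone acetate at 100 mg/kg in the M groups (horizontal axis) and in the F groups (vertical axis), 1 point per member, with equal values on the dotted line. Orange marks the 19 members whose F and M differences differed (limma adjusted p under 0.05), of which 18 lie above the line and 1, at -3.31 in F, below it.

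The treated F arrays of day 28 also differed from each other over the set. The array medians of the log2 difference from the control mean were -0.05, 0.06, 0.36 and 0.50 for replicates 1 to 4, and 5, 12, 19 and 29 members were at 1 log2 unit or more. Replicate 4 held the highest level for 46 members and replicate 1 the lowest for 52. This order, too, was counted for the members only. The members' median SD in this group was 0.38, against 0.17 for all transcripts. Replicate 4 exceeded replicate 1 for 69 members, by a median of 0.62 log2 units, and by 1 or more for 20, against 1.16% of all transcripts. The members with a large gap here were only partly those with a large gap at methapyrilene 30 mg/kg. In both, 12 members had a gap of 1 log2 unit or more. This is 12 of the 20 here, where 42 of all 84 members had such a gap at methapyrilene 30 mg/kg. Over the 84 members the gaps had Pearson r = 0.169 and Spearman rho = 0.150, a weak link.

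Raised both at methapyrilene 30 mg/kg for 28 days and by cyproterone acetate in F on day 28 were 15 members (17.9%). Over all transcripts, 1.72% were raised in both. Of the members raised at methapyrilene 30 mg/kg, this is 15 of 48, beside 387 of 1207 over all transcripts, a like share. Of those raised in F, it is 15 of 22, beside 48 of all 84 members and 387 of 2003 over all transcripts. The same compound chose the set, so a share above that of all transcripts does not show a link between the responses. The methapyrilene and F comparisons share no arrays.

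The deepest falls outside methapyrilene were also in the cyproterone acetate F groups. ENSRNOT00000058957 fell by 4.04 log2 units on day 28 (SE 0.49, limma adjusted p = 2.03e-10). Its log2 level was 6.42, 6.71, 6.46 and 5.92 on the treated F arrays and 10.49, 10.03, 10.50 and 10.65 on their controls, and the groups did not overlap. On day 14 it read 7.92, 7.73, 8.70 and 7.19 against 10.61, 11.71, 9.91 and 10.88, a log2 difference of -2.89 (SE 0.49, limma adjusted p = 3.65e-06). In M it read 6.07, 6.08, 6.13 and 6.44 on day 28 against 9.04, 8.02, 7.44 and 7.86, a log2 difference of -1.91 (SE 0.49, limma adjusted p = 0.00406). On day 14 in M the log2 difference was -0.84 (SE 0.49, limma adjusted p = 0.324). The F response differed from the M response by -2.13 log2 units on day 28 (95% interval -3.51 to -0.75), which did not pass the test (limma adjusted p = 0.0709).

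This transcript differed strongly between control sets, which bears on its membership. Its control means on the log2 scale ran from 6.29 in the carboxymethylcellulose set C of day 28 and 6.35 in set B to 10.82 in set A of day 14, a range of 4.52. The controls of the rule's methapyrilene comparison read 8.12, 7.17 and 6.21, and the 100 mg/kg arrays read 11.26, 11.32 and 10.59. On 10 of the 50 control arrays, and on 20 of all 103 arrays without methapyrilene, it was at or above the lowest 100 mg/kg array. At 30 mg/kg for 28 days it read 7.97, 9.79 and 7.93 against 6.04, 6.18 and 6.66, a log2 rise of 2.27 (SE 0.57, limma adjusted p = 0.00396). Without replicate 2 that log2 difference was 1.66 and no longer called. What else differs between the control sets was not tested. Its Wy-14643 log2 difference of 0.50 was also the one nearest the upper limit of the rule.

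ENSRNOT00000004231 fell in F to log2 levels near those of the M groups. On day 28 its log2 level was 3.05, 3.48, 3.19 and 3.93 on the treated F arrays and 6.53, 6.33, 6.92 and 7.13 on their controls, a fall of 3.31 log2 units (SE 0.19, limma adjusted p = 2.24e-26). On day 14 it read 3.14, 2.88, 4.02 and 3.11 against 5.80, 6.24, 6.47 and 5.87, a log2 difference of -2.81 (SE 0.19, limma adjusted p = 5.69e-22). The M controls of day 28 read 3.24, 3.53, 3.35 and 3.23, and the M arrays with cyproterone acetate read 3.06, 3.11, 3.16 and 3.05. The M log2 differences of -0.24 on day 28 and -0.37 on day 14 did not pass the test (limma adjusted p = 0.514 and 0.249). The F response differed from the M response by -3.07 log2 units on day 28 (limma adjusted p = 2.25e-15) and by -2.44 on day 14 (limma adjusted p = 6.49e-11). The treated F and treated M groups of day 28 were compared after these values were seen: the log2 difference was 0.32 (95% interval -0.07 to 0.70, limma adjusted p = 0.391). At methapyrilene 100 mg/kg this transcript read 6.93, 7.15 and 7.14 against control arrays of 3.10, 3.24 and 3.82. Those treated levels overlap the untreated F range on day 28. With 30 mg/kg for 28 days its log2 difference was 0.57 (SE 0.22, limma adjusted p = 0.0945).

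**Figure D5:**
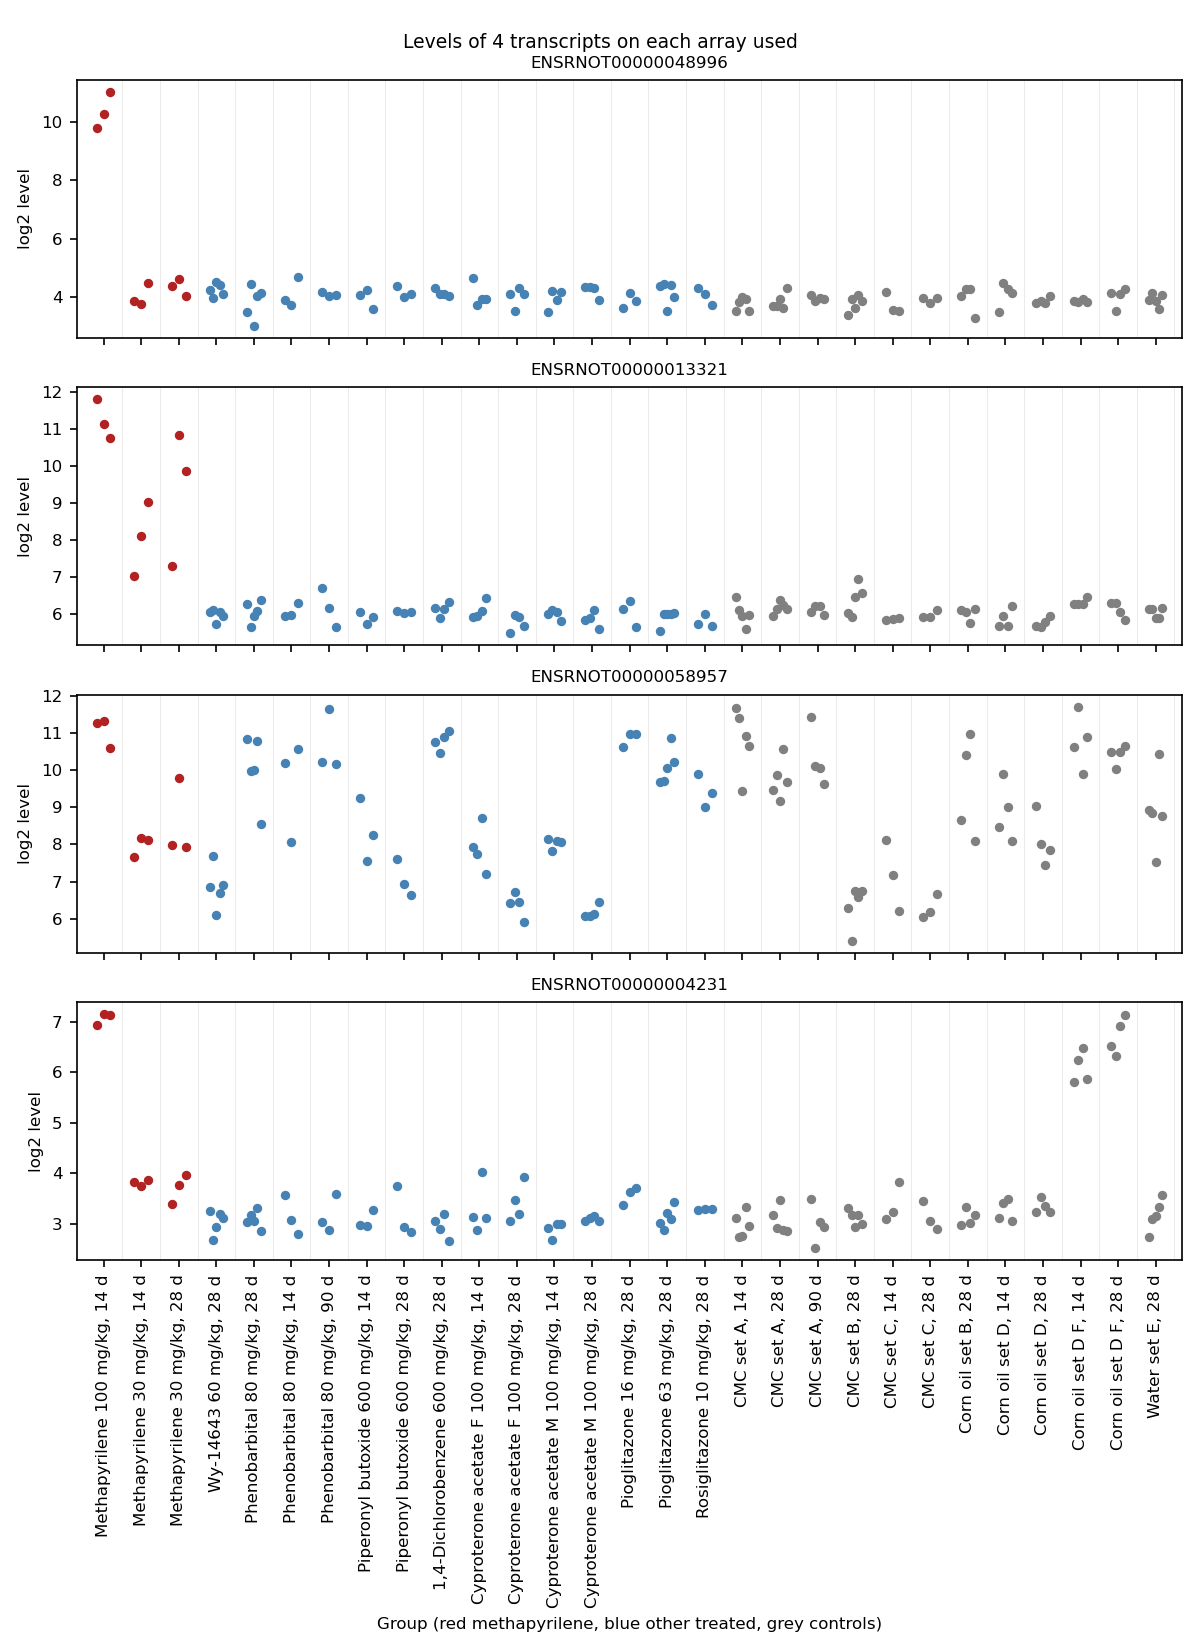
Log2 level on each array used (points) of the 4 named members, 1 panel each, by group (red methapyrilene, blue other compounds, grey controls). ENSRNOT00000048996 is high only in the 3 arrays of methapyrilene 100 mg/kg (9.78 to 11.04), ENSRNOT00000058957 ranges widely among control groups (means from 6.29 to 10.82), and ENSRNOT00000004231 is high there and in the 8 F control arrays (5.80 to 7.13).

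The F and M controls themselves differed for part of the set. On day 28, 9 members were higher and 2 lower in F than in M controls, against 4.09% and 3.6% of all transcripts. On day 14, 5 were higher and 1 lower, against 3.87% and 4.05%. On both days 4 members (4.76%) were higher, against 2.55% of all transcripts. ENSRNOT00000004231 was 3.39 and 2.83 log2 units higher in F on days 28 and 14 (limma adjusted p = 2.10e-27 and 2.20e-22), and ENSRNOT00000058957 was 2.33 and 1.91 higher (limma adjusted p = 0.000337 and 0.00508). The largest differences between these controls, in another member, were 4.25 and 3.61 log2 units. All 8 F control arrays of that member were at or above its lowest array at methapyrilene 100 mg/kg, which read 7.95.

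Phenobarbital was part of the rule on day 28 only, and its other days can be tested. On day 14, 0 members were raised and 0 lowered by limma, against 0.672% and 0.765% of all transcripts, with 2 and 1 members at an unadjusted p under 0.05. On day 90, 4 members were raised and 0 lowered, against 1.36% and 0.623%. The largest of these log2 rises was 2.00 (SE 0.54, limma adjusted p = 0.0257). That count of 4 was not stable to single arrays: it was 0 without replicate 2 of the day-90 controls and 0 without replicate 2 of the treated group, and 1 or 2 without replicates 3 or 4 of the controls or 4 or 5 of the treated group. The carboxymethylcellulose controls of day 90 and day 14 were also compared, and 0 members were higher and 3 lower on day 90, against 1.13% and 1.69%.

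1,4-Dichlorobenzene raised 4 members and lowered 1, against 3.89% and 2.07% of all transcripts. With the 11 arrays marked as not of good quality included, 10 were raised and 2 lowered, and with only the same control set fitted, 10 were raised and 3 lowered. The raised members rose by 0.83 to 1.18 log2 units, and the lowered one fell by 0.81. With pioglitazone at 16 mg/kg, 0 members were raised and 0 lowered by limma, against 0.0223% and 0.0267% of all transcripts, and 3 and 4 passed an unadjusted p under 0.05. At 63 mg/kg the counts were again 0 and 0, against 0.935% and 1.48%, with 3 and 3 at an unadjusted p under 0.05. With rosiglitazone they were 0 and 0, against 0.2% and 0.481%, with 1 and 0 at an unadjusted p under 0.05. Pioglitazone and rosiglitazone, both agonists of PPAR gamma, share their control arrays. The members' typical 95% interval was plus or minus 0.41 log2 units for pioglitazone at 16 mg/kg and for rosiglitazone, and 0.35 for pioglitazone at 63 mg/kg. Larger differences also went without a call: ENSRNOT00000058957 stood 1.96 log2 units above the controls with pioglitazone at 16 mg/kg (SE 0.51, limma adjusted p = 0.101).

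Some members moved almost as a unit. The deviations of arrays from their group means were compared over the 86 arrays outside the rule, and members with a Pearson r above 0.9 were joined, which left 76 sets from 84 members. There were 5 sets of 2 members and 1 of 4, and the median r over all pairs of members was 0.18. Whether such members are transcripts of 1 gene, or share probes, was not tested. Counted once per set, the raised count at methapyrilene 30 mg/kg for 28 days was 42 of 76.

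The members of the set of 4 rose by 1.93 to 2.02 log2 units at methapyrilene 30 mg/kg for 28 days, and all 4 were called. At 30 mg/kg for 14 days they stood 1.57 to 1.67 above the controls, and with piperonyl butoxide on day 14 they stood 1.14 to 1.27 above the same controls. With piperonyl butoxide on day 28 the log2 differences were 0.89 to 0.98, of which 2 were called. Phenobarbital gave log2 differences of -0.29 to -0.18 on day 14, of which 0 were called, of -0.15 to -0.11 on day 28, and of 0.78 to 1.04 on day 90, of which 2 were called. Over all members, the counts with piperonyl butoxide on day 28 and with phenobarbital on day 90 moved with single arrays, as given above. Log2 differences with 1,4-dichlorobenzene were 0.66 to 0.72, of which 0 were called (limma adjusted p from 0.109 to 0.159). In the controls of day 28 all 4 were higher in F than in M, by 1.03 to 1.20 log2 units.

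Taken over the 12 comparisons outside the rule, the members fell into several patterns. For 20 members no comparison made a call, against 60.9% of all transcripts. For 26 the sole call was the rise at methapyrilene 30 mg/kg on day 28, against 1.82% of all transcripts. Another 18 members (21.4%) were raised there and with another compound, against 2.91% of all transcripts. A rise with another compound and no call there was found for 11 members (13.1%), against 16.3% of all transcripts, so this pattern was no more frequent in the set than over the array. Of the members raised there, 5 (5.95% of the set) were lowered by another compound, against 1.02% of all transcripts.

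Levels at methapyrilene 100 mg/kg were compared with those of the arrays without methapyrilene. For 81 of 84 members all 3 arrays at that dose were above all 50 control arrays, and for 79 they were above all 103 arrays without methapyrilene. The exceptions were the 2 members that fell with cyproterone acetate, the one with high F controls, and the pair with the largest F rises. The range of a member's control group means had a median of 0.60 log2 units, against 0.45 for all transcripts, and was 1 or more for 13 members. The arrays at 30 mg/kg are not in these counts, and on 1 of them ENSRNOT00000013321, at 10.84, was above its lowest array at 100 mg/kg, at 10.75. Since the rule chose members for high values at that dose, these counts are a description. No share over all transcripts is set beside them, so they do not mark the members off from other transcripts.

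The other 74 transcripts that met the methapyrilene condition differed from the set by the rule itself, chiefly with Wy-14643. At methapyrilene 30 mg/kg for 28 days, 53 of those 74 were raised, with a median log2 difference of 1.12, beside 48 of 84 with a median of 0.75. With 1,4-dichlorobenzene 22 of those 74 were raised, beside 4 of the 84, and with cyproterone acetate in M on day 28 it was 15 beside 3. In F on day 28 it was 39 beside 22. With pioglitazone at 63 mg/kg it was 2 beside 0. These counts are given as a description, and no test was made of the difference between the lists.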

How the data were processed

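Liver RNA of rats in 29 groups was measured on Affymetrix RaGene 2.0 ST arrays. The values are deposited log2 levels, made by the authors with RMA and the affy package per the submitters' processing notes, and versions are not given in the sources used here. Of 23110 probe sets, 640 with values equal to another's were left out, which left 22470. The 112 arrays marked as of good quality were used and 11 were not. Levels on arrays have no count depth, and the number of arrays limits their precision. Labels do not tie arrays to single animals, so p-values measure the spread between arrays.

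Group means were fitted for all 29 groups together in limma 3.58.1 (R 4.3.3) with empirical Bayes variances (residual degrees of freedom 83), without a block, and p-values were adjusted by Benjamini-Hochberg over all transcripts, with 0.05 as the threshold. The fit took the spread of a transcript as equal in all groups. Of 17 treated groups, 3 chose the members, 2 share controls with that choice and 12 were tested, together with 7 differences. The fit was tested on simulated data. Alternatives were all arrays including those 11, array centring, quantile normalization, leaving out the dimmest 40% of probe sets, a variance trend, the same control set alone, the replicate block, group medians for choosing members, other day-14 controls, and each array left out. Counting members with residual r above 0.9 once was chosen after seeing the data.

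The members and lists were chosen with earlier results of these data known. Named members were the one with the largest difference at methapyrilene 100 mg/kg, another with the largest called rise at 30 mg/kg for 28 days, and the 2 with the most negative called change outside the rule. Planned gene lists, cell type markers and sequences were not used here, since 0 transcript identifiers matched the rat annotation.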

Additional observations from a re-analysis of the deposited data

Results flagged for a closer look

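The response to cyproterone acetate differed between the F and M groups for 19 members on day 28 and for 9 on day 14, by limma's test of the difference. For ENSRNOT00000004231 this difference was -3.07 log2 units on day 28 and -2.44 on day 14. The F controls of this transcript also stood above the M controls, by 3.39 and 2.83 log2 units on the same days.

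Over the 4 named members and the array medians of the set, 90 groups of 4 or 5 arrays were examined for 1 array far from the rest, and 4 held one. Chance gives about 1 in 20. ENSRNOT00000013321 read 6.459 on replicate 4 of the F controls of day 14 and 5.517 on replicate 1 of pioglitazone 63 mg/kg. On replicate 4 of cyproterone acetate M of day 28, ENSRNOT00000048996 read 3.899 and ENSRNOT00000058957 read 6.439.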

How the results depend on the processing

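Groups of 3 to 5 arrays limit what can be called, and counts under 10 moved easily. Of 307 alternatives other than single arrays left out, over 42 results, 285 kept direction and call, or a count within 1.5 times, and 22 did not. The cause was not tested for any of them. The set itself had 73 members after array centring (72 shared), 81 after quantile normalization (75 shared) and 83 by group medians (74 shared). With all arrays it kept its 84 members, which was fixed in advance. No group of the rule holds an array marked as not of good quality. That outcome is still counted among the 285. Methapyrilene 30 mg/kg for 28 days raised 32 members when only the same control set was fitted and 36 without the dimmest probe sets, a filter that leaves 49 members.

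With the 11 arrays marked as not of good quality included, 1,4-dichlorobenzene raised 10 members and lowered 2, phenobarbital for 14 days lowered 1, and 1 member differed between days at methapyrilene 30 mg/kg. With the same control set alone, 1,4-dichlorobenzene raised 10 and lowered 3, phenobarbital for 90 days raised 1, piperonyl butoxide on day 28 raised 1 and lowered 0, methapyrilene differed from piperonyl butoxide for 33, and the controls of days 90 and 14 differed for 5. After array centring, piperonyl butoxide raised 5 and 1 member differed between methapyrilene days. After quantile normalization, piperonyl butoxide raised 5 and phenobarbital for 14 days raised 1. Without the dimmest probe sets, cyproterone acetate M lowered 1 on day 14, 1,4-dichlorobenzene raised 2, piperonyl butoxide raised 5 and pioglitazone 63 mg/kg raised 1. With close members counted once, phenobarbital for 90 days raised 2 and piperonyl butoxide raised 1. Replicate numbers did not pair the arrays: in 0 comparisons did every same-numbered pair correlate above 0.1. With the replicate block, phenobarbital for 90 days raised 2 members, methapyrilene 30 mg/kg for 28 days still 48, and no other call changed by over 1.5 times.

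With single arrays left out, members numbered 82 to 89. Raised members ranged from 25 to 62 for methapyrilene 30 mg/kg on day 28, 0 to 4 for phenobarbital on day 90, 0 to 1 on day 14 (1 without control replicate 5), 1 to 7 for piperonyl butoxide on day 28 (7 and 6 without treated replicates 1 and 2, and 1 without any other array), 0 to 1 for pioglitazone 16 mg/kg (1 without control replicate 4) and 0 to 1 for pioglitazone 63 mg/kg (1 without control replicate 2 or 4). Lowered members ranged from 1 to 4 for cyproterone acetate M on day 14 (1 without control replicate 3), 2 to 5 on day 28 (2 without control replicate 1), 0 to 1 for 1,4-dichlorobenzene (0 without control replicate 4), 0 to 1 for piperonyl butoxide (0 without replicate 1 of either group) and 0 to 1 for pioglitazone 63 mg/kg (1 without treated replicate 4). Members that differed ranged from 31 to 64 between methapyrilene and piperonyl butoxide, 0 to 16 between methapyrilene days, 11 to 24 and 7 to 15 between F and M responses on days 28 and 14, and 1 to 5 between controls of days 90 and 14 (1 without replicate 5 of day 14 or 2 or 4 of day 90, 5 without replicate 1 of day 90).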
